A study of Rattus norvegicus with 8 samples.

Results

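Trimethylation of lysine 4 of histone H3 (H3K4me3) was compared between cultured vascular smooth muscle cells with and without angiotensin II (AngII). AngII is the peptide hormone of the renin-angiotensin system that constricts vessels and stimulates growth of smooth muscle. The cells were primary cultures from thoracic aortas of Sprague-Dawley rats. The control cells had no treatment, and the stimulated cells were starved of serum overnight and then received 0.1 uM AngII for 3 h. Starvation is stated for the AngII samples only, so the effects of starvation and of AngII cannot be told apart. All 28168 H3K4me3 regions of the control library and all 27801 of the AngII library were used, 55969 of the 89972 chromatin regions of the series. There was 1 H3K4me3 library per condition (of 8 samples in all, with matching H3K36me3, RNA and input samples), so no test was possible and no difference below has a replicate check. The age and sex of the rats, the number of animals behind a culture and the passage are not given in the sources used here.

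H3K4me3 is deposited by SET1 and MLL enzyme complexes and sits around the transcription start sites of active and poised genes. Recruitment of these complexes is aided by subunits that bind unmethylated CpG dinucleotides, so promoters rich in CpG usually carry the mark. The height of the mark and its spread into the gene body both tend to be greater at strongly transcribed genes.

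The promoters of 5 genes are shown first because they sit under the regions that the results turn on. Each run is the 250 bases before the transcription start in RefSeq on GRCr8, 5′ to 3′, with every CpG in capitals. Dusp5, Ptgs2 and Fosl1 are induced genes whose H3K4me3 region was wider after AngII, Serpinf1 had the largest gain in covered bp among genes with coordinates of their own, and Glod4, named here after its values were seen, had a far narrower region after AngII.
Dusp5: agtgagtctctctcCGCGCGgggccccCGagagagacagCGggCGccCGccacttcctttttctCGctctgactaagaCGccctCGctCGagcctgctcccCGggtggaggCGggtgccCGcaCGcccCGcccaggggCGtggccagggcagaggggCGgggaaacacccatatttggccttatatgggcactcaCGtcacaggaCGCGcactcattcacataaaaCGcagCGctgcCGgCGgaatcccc
Ptgs2: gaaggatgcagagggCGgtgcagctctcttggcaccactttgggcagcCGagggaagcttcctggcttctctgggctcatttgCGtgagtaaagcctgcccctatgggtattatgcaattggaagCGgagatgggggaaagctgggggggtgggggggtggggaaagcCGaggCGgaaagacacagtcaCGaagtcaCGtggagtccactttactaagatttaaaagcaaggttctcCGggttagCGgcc
Fosl1: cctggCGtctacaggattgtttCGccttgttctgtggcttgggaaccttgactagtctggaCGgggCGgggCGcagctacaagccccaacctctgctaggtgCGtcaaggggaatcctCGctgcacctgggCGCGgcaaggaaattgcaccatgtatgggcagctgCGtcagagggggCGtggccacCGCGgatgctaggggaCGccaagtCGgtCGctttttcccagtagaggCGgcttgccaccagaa
Serpinf1: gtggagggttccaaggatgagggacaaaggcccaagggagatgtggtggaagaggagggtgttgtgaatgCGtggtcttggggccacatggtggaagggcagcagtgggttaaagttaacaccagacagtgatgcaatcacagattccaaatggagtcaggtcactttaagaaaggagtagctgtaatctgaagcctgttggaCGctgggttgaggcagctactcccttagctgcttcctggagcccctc
Glod4: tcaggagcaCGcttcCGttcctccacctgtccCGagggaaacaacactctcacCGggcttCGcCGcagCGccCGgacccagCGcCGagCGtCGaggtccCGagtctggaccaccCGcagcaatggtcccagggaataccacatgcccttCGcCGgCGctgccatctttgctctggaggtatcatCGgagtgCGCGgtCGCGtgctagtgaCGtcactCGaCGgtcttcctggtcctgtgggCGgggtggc
The Dusp5 run (chr1:262543524-262543773, plus strand) holds 25 CpG and 2 matches to the CArG box, the element bound by serum response factor. The Ptgs2 run (chr13:64713813-64714062, plus strand) holds 10 CpG, and the Fosl1 run (chr1:212183635-212183884, plus strand) holds 17. The Serpinf1 run (chr10:60760899-60761148, minus strand) holds 2, and the Glod4 run (chr10:61594112-61594361, minus strand) holds 26. The 5 sequences therefore run from CpG-rich to CpG-poor, and a wider mark was seen over both kinds.

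Most places were in both lists, and most of these held 1 region of each. Regions are whole multiples of a bin of 153 bp in control and 160 bp after AngII. They covered 81.5 Mb in control (median width 1836 bp) and 82.6 Mb after AngII (median 1920 bp), on the same 21 chromosomes. Joining regions that overlapped by at least 1 bp gave 30867 separate places. Of these, 23487 (76.1%) held exactly 1 region of each list and are called pairs. Another 424 places held several control regions that were 1 region after AngII, and 322 held 1 control region that was several after AngII. A further 3441 places were in the control list only and 3169 in the AngII list only. These were short, with medians of 765 bp and 800 bp, and weak, with a median score at percentile 16.1 of the control list and 16.7 of the AngII list.

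The pairs differed little between conditions. The width correlated between lists with a Spearman coefficient of 0.91 over 23487 pairs, and the authors' score with 0.94; pairs within a library share its depth, and these values are descriptions. The median log2 ratio of AngII to control width was 0.06 (quartiles -0.20 and 0.27), which is the ratio of the 2 bin sizes. A pair was called wider or narrower at a 1.5-fold ratio of widths and a difference of at least 480 bp, or 3 bins of 160 bp. By this rule 1916 pairs (8.16%) were wider and 1464 (6.23%) narrower after AngII, so wider pairs made up 56.7% of those called. With widths in bins, which sets the median ratio to 0, they made up 45.6% (1461 wider, 1744 narrower), so the data do not show whether the mark widened or narrowed as a whole.

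The authors' score ranks regions within a list. Expressed as a percentile over the same pairs in each list, it was at least 25 points higher after AngII in 262 pairs (1.12%) and at least 25 points lower in 270 (1.15%). Wider pairs had a lower percentile more often: the shift in score percentile and the log2 width ratio had a Spearman coefficient of -0.59 over 23487 pairs. The score multiplied by the number of bins was checked for a whole number (within 0.01) in regions of 4 to 6 bins. It was whole for 68.0% of 5081 control regions and 68.2% of 4837 AngII regions. For most of these regions the score thus has the arithmetic of a mean per bin, but what it counts is not stated. A second rank, of score times width, was therefore added after the data were seen. If the score is a mean per bin, this rank follows the whole signal of a region.

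Places at the ends of annotated loci were in both lists most often, and pairs there were least often called wider or narrower. A place was at an end when it lay within 1 kb of either end of an RNA locus with a RefSeq accession. The RNA table gives no strand, so start and stop could not be told apart. Of the places at ends, 96.4% were in both lists, against 71.2% of those inside loci and 68.6% of those away from loci. Of 9333 pairs at ends, 553 (5.93%) were wider and 452 (4.84%) narrower. The shares were 10.3% and 7.25% among 7286 pairs inside loci, and 8.93% and 7.05% among 6868 pairs away from loci. Pairs at ends were also longer, with a median control width of 3366 bp against 1530 bp inside and 1224 bp away from loci, and their edges moved more in bp: an edge moved by more than 1 kb in 19.0% of pairs at ends, 13.5% inside and 8.39% away from loci. Pairs at ends also had the higher scores, with a median control percentile of 73.7 against 33.7 inside loci.

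Of 14767 gene symbols with a locus, 9926 had a place at an end that was in both lists, 99 had one in control only, 74 in AngII only and 4668 had none. The width of a gene is the number of bp covered in each list by the widest such place. After AngII, 581 genes (5.85%) were wider and 439 (4.42%) narrower. With widths in bins 418 were wider and 642 narrower, so at genes too the balance of both directions rests on the scale. Of the 9926 genes, 7653 have coordinates of their own, and 3636 share their place with another symbol, often across a divergent promoter.

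Genes with more RNA after AngII had a wider H3K4me3 region more often than other expressed genes. RNA abundance is the authors' FPKM (fragments per kilobase of transcript and per unit of library size), and the RNA log2 ratio is log2 of AngII FPKM plus 1 over control FPKM plus 1. A gene was expressed at 1 FPKM or more in either library. It was RNA-higher or RNA-lower at a 2-fold ratio with the authors' FPKM bounds apart, which 195 (2.59%) and 120 (1.59%) of the 7542 expressed genes in both lists were. Of the 195 RNA-higher genes, 46 (23.6%, exact Clopper-Pearson 95% interval 17.8 to 30.2) were wider and 0 were narrower, a count that allows a share of up to 1.87%. Their median width was 4743 bp in control and 6080 bp after AngII. The median log2 ratio was 0.29 (quartiles 0.06 and 0.57), and 156 of the 195 had a ratio above 0. Among 7227 other expressed genes 5.63% were wider and 3.68% narrower, with a median ratio of 0.03. Intervals and upper limits cover counting error only. In bins, 42 RNA-higher genes were wider and 1 narrower, against 4.11% and 5.73% of the other expressed genes, so this contrast held on either scale.

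**Figure D1:**
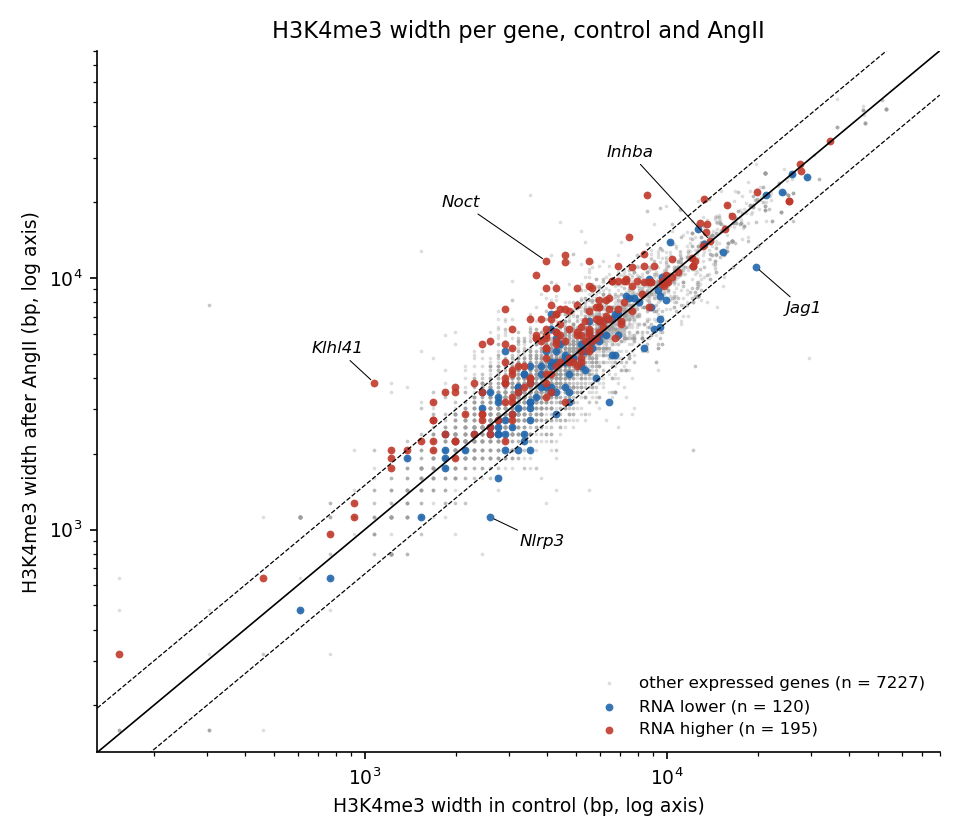
H3K4me3 width of each expressed gene in control (x axis, bp, log axis) and after AngII (y axis, bp, log axis); the solid line marks equal widths and the dashed lines a 1.5-fold ratio. Of the 195 RNA-higher genes (red) 46 are called wider, and of the 120 RNA-lower genes (blue) 8 are called narrower.

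Among genes with an RNA log2 ratio of 1 or more, the median width ratio rose with the size of the RNA difference. The Spearman coefficient of the RNA and width ratios was 0.17 over all 7542 expressed genes. Genes with an RNA log2 ratio between -2 and -1 had a median log2 width ratio of -0.03 (n = 218), with 4.13% wider and 4.13% narrower. That median was -0.02 between -1 and -0.5 (n = 1464). It was 0.06, the ratio of the 2 bin sizes, both between 0 and 0.5 (n = 1557) and between 0.5 and 1 (n = 413). In these 2 groups 6.36% and 9.93% were wider. The median was 0.18 between 1 and 2 (n = 202), 0.41 between 2 and 3 (n = 57) and 0.65 at 3 or more (n = 22). In that last group 13 of 22 genes were wider (59.1%, 36.4 to 79.3). Read from the chromatin side, the median RNA log2 ratio was -0.08 for 456 expressed genes that were wider, -0.35 for 274 that were narrower and -0.22 for 6812 that were neither. Over all 7542 expressed genes the RNA median was -0.22; after centring it the medians were 0.16 for wider and -0.11 for narrower genes. RNA-higher genes made up 10.1% of the wider genes, 0% of the narrower and 2.19% of the rest. Most wider genes were thus not RNA-higher, and 125 of the 581 were not expressed.

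**Figure D2:**
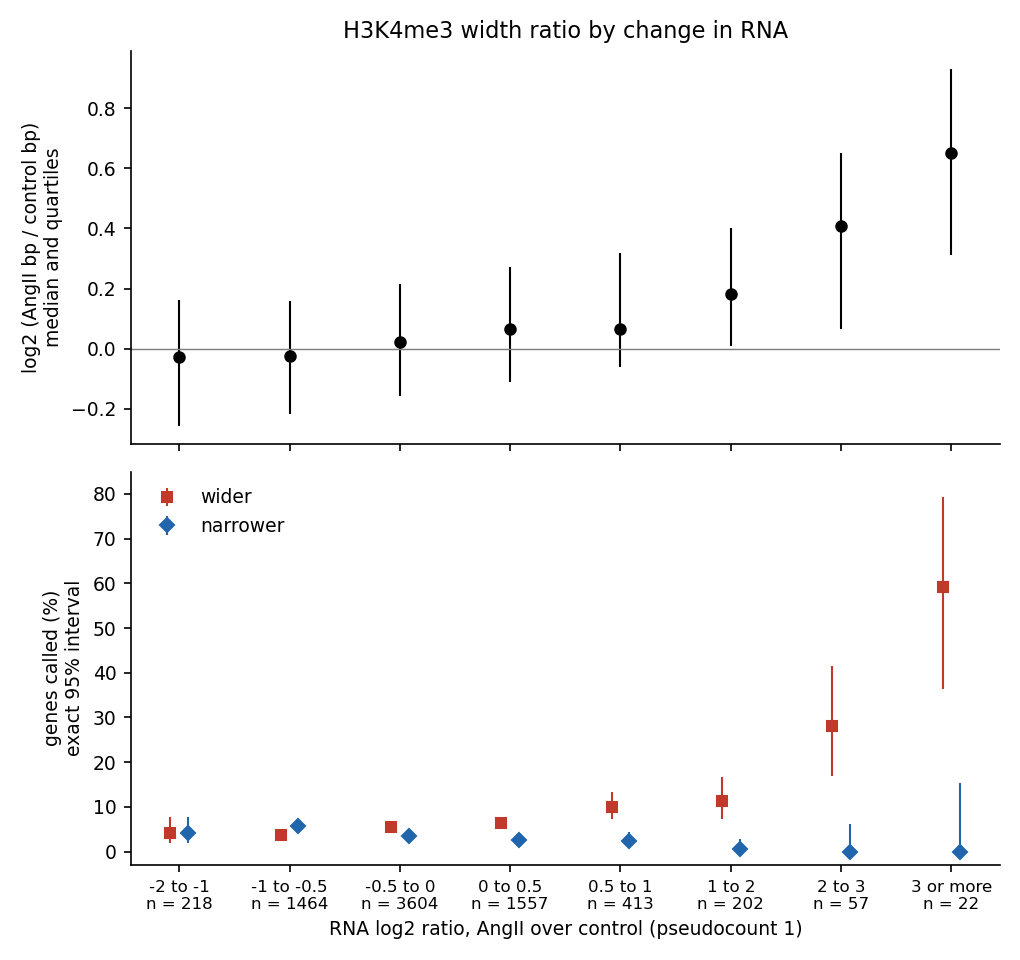
Upper panel: median and quartiles of the log2 width ratio (y axis) for expressed genes grouped by RNA log2 ratio (x axis); lower panel: percent of genes called wider or narrower, with exact 95% intervals. The group of 5 genes under -2 is left out. The median width ratio is -0.02 between -1 and -0.5 and 0.65 at 3 or more, where 13 of 22 genes are wider.

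Among genes that were both RNA-higher and wider, Itga5, the alpha subunit of a fibronectin receptor, had 3672 bp in control and 10240 bp after AngII (33.0 and 139 FPKM). The region on rn4 chromosome 7 ran from 142275114 to 142278785 in control and from 142268837 to 142279076 after AngII. The outer edge moved by 291 bp and the inner edge by 6277 bp, so nearly all of the gain lay inside the locus. Cd44, a hyaluronan receptor, had 4284 bp and 9120 bp (11.8 and 71.4 FPKM), with 5030 bp inward. Klhl41, a Kelch protein of striated muscle, had 1071 bp and 3840 bp (1.13 and 16.4 FPKM), and its relative Klhl40 had 1224 bp and 2080 bp (0.0543 and 3.04 FPKM). Both began with a small region near the level of a few bins, in cells where the RNA was close to or under 1 FPKM.

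In 24 RNA-higher genes (12.3%) several control regions were 1 region after AngII, and in 2 the opposite was seen. Among other expressed genes the shares were 3.50% and 4.00%. Noct, a circadian phosphatase, had 3978 bp of covered sequence in control and a single 11680 bp region after AngII (1.92 and 39.8 FPKM). Msmo1, a sterol methyl oxidase of cholesterol synthesis, had 4590 bp and 12320 bp (74.3 and 341 FPKM). Fosl1, an AP-1 subunit, had 13311 bp and 20640 bp (0.685 and 43.9 FPKM), in a place that 3 symbols share. In these genes a gap between control regions was covered after AngII, and the width gained includes the gap; no 2 control regions of the list lie closer than 918 bp.

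Other genes that were both RNA-higher and wider are named here after their values were seen. Slc20a1, a phosphate transporter, had 4590 bp in control and 11520 bp after AngII, and E2f6, a repressor of the E2F family, had 2907 bp and 7520 bp; both gained on both sides (4225 bp outward for Slc20a1 and 2006 bp for E2f6). Flt1, a receptor for vascular endothelial growth factor, had 4590 bp and 7520 bp, with RNA at 3.01 and 47.7 FPKM. Errfi1, a feedback inhibitor of the EGF receptor, had 4284 bp and 7200 bp, and Ahr, the aryl hydrocarbon receptor, had 4437 bp and 7520 bp. Nes, the intermediate filament nestin, had 2907 bp and 5440 bp. Of the 46 genes, 43 have coordinates of their own and a place that no other symbol shares; Nr4a1, Gem and Fosl1 do not.

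The gain lay on the inner side of the locus. For 162 RNA-higher genes whose place lay at only 1 end, the inner edge shifted by a median of 466 bp into the locus (quartiles 60 and 1494) and the outer edge by 70 bp outward (quartiles -123 and 336). The inner edge moved more than 1 kb into the locus in 55 of them (34.0%) and the outer edge more than 1 kb outward in 12 (7.41%). For 6547 other expressed genes the medians were 56 bp and 8 bp, and the shares 9.70% and 3.50%. For 104 RNA-lower genes the inner edge shifted by a median of -111.5 bp, that is, back toward the end, and the outer edge by 55 bp. A step of 1 bin is 153 or 160 bp, so the RNA-higher median is about the length of 3 bins and the RNA-lower median is under 1.

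**Figure D3:**
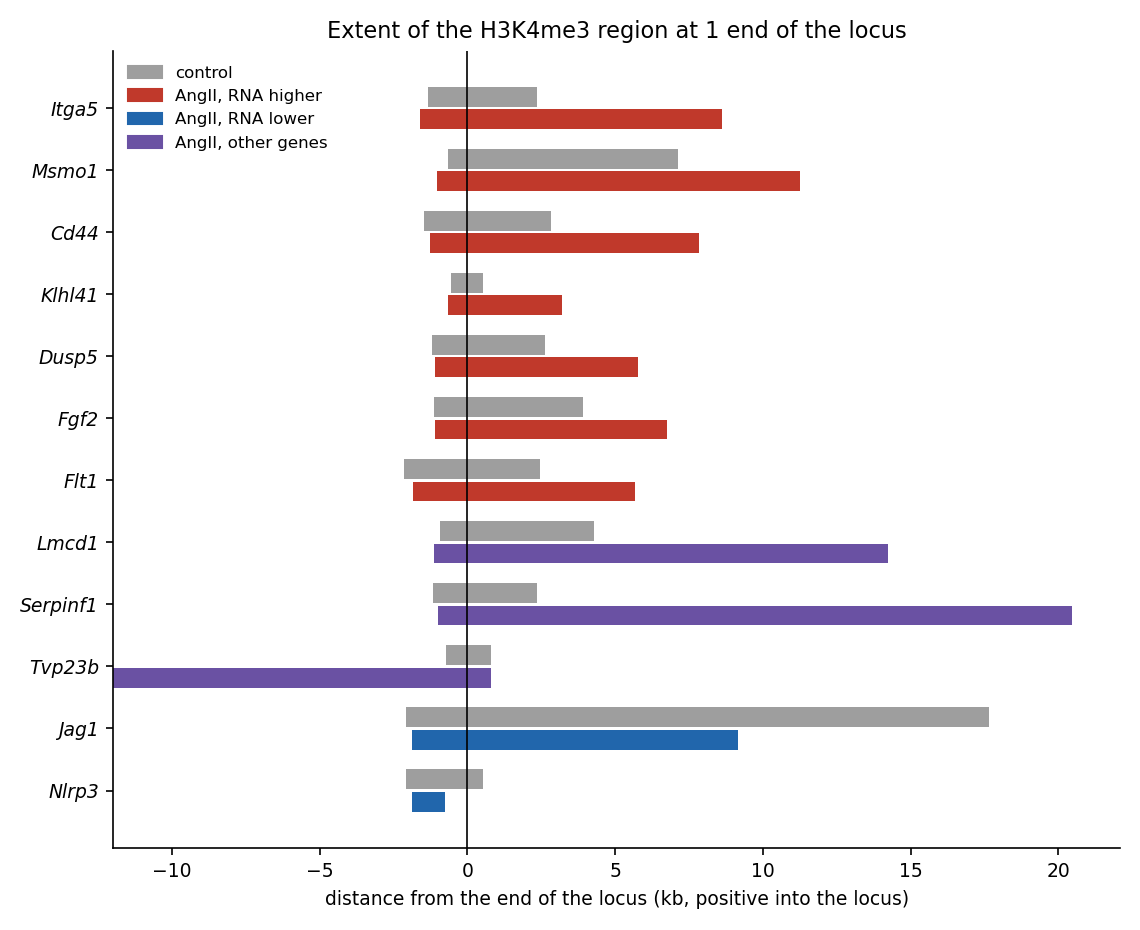
Extent of the H3K4me3 place in control (grey) and after AngII (coloured) for 12 genes, measured from the end of the locus at which it lies (x axis, kb, positive into the locus); for Msmo1 the control bar spans the gap between its control regions. At Itga5 the inner edge is 2.35 kb inside the locus in control and 8.63 kb after AngII, and at Jag1 it is 17.6 kb and 9.17 kb.

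The rank of score times width separated the RNA classes more sharply than width did. It was higher after AngII than in control in 157 of 169 RNA-higher genes with a pair (92.9%), with a median shift of 3.90 percentile points (quartiles 1.16 and 8.51). It was higher in 14 of 114 RNA-lower genes (12.3%), with a median shift of -2.27 points. Among 6673 other expressed genes it was higher in 47.8%, and among 2224 genes not expressed in 38.0%. A shift of at least 10 points upward was seen in 32 RNA-higher genes (18.9%), in 0 RNA-lower genes and in 1.21% of the other expressed genes. This rank is the same in bp and in bins.

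**Figure D4:**
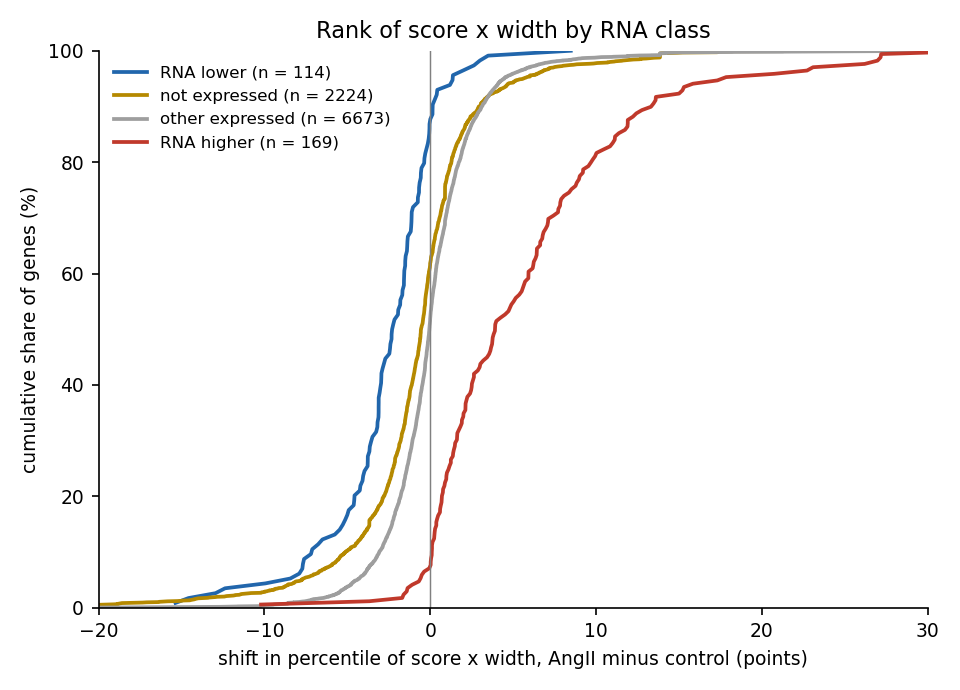
Cumulative share of genes (y axis, %) by the shift in percentile of score times width after AngII (x axis, points; positive is higher after AngII) for 4 RNA classes. At a shift of 0 the RNA-higher genes (red) have 92.9% of their genes to the right and the RNA-lower genes (blue) 12.3%.

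The same held at control levels of 1 FPKM or more and at each level of the mark in control. At 1 to 10 FPKM in control, 88.1% of 84 RNA-higher genes had a higher rank of score times width. The shares there were 42.9% of 2622 other expressed genes and 13.8% of 65 RNA-lower genes. At 10 FPKM or more the shares were 98.2% of 55 and 50.7% of 3993, and 10.2% of 49 RNA-lower genes. At a control FPKM under 1 they were 96.7% of 30 RNA-higher and 65.5% of 58 other expressed genes. An expressed gene at that level must have 1 FPKM or more after AngII. All of these genes thus had more RNA after AngII, and that level is no separate check. By control width, wider RNA-higher genes made up 43.5% of 23 genes under 2 kb and 6.45% of 62 genes at 6 kb or more; the other expressed genes had 14.4% and 1.61%. A 1.5-fold ratio needs more added bp on a wide region, and the median ratio of RNA-higher genes at 6 kb or more was 0.12 against -0.03 for the other expressed genes.

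Several RNA-higher genes were not called wider and had a higher score percentile after AngII. Of 36 RNA-higher genes with a width ratio at or below 0, 35 had a higher score percentile after AngII and 21 (58.3%) were at least 10 points higher; among 2964 other expressed genes with such a ratio 85.4% were higher and 25.9% were at least 10 points higher. Fos, the founding AP-1 subunit, had 5355 bp in control and 5600 bp after AngII, while its score percentile was 65.7 and 83.6 (1.24 and 10.3 FPKM). Pdgfb, a smooth muscle mitogen, had 5202 bp and 5120 bp, with percentiles of 62.4 and 79.1 (2.28 and 32.8 FPKM). Inhba, an activin subunit, had 13923 bp and 14080 bp, with percentiles of 80.6 and 98.1. Rgs2, which limits signalling of Gq-coupled receptors such as that of AngII, had 5202 bp and 4640 bp, with percentiles of 67.5 and 87.5; its listed coordinates are shared with another locus. Gldn, gliomedin, had the largest rise in score percentile among RNA-higher genes that the naming rule selected, from 8.01 to 47.6, with 1224 bp and 1760 bp (1.96 and 15.5 FPKM). In these genes the score ranked higher among all pairs after AngII, and none of the regions was called wider. The log2 width ratio of Gldn, at 0.52, was under the 1.5-fold threshold. Such a rise was not limited to RNA-higher genes. Gapdh, with RNA at 143 and 149 FPKM, had score percentiles of 82.7 and 97.8.

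The opposite combination, a wider region with a lower score percentile, was common among wider genes. The percentile was higher after AngII in 13 of 39 wider RNA-higher genes with a pair, and in 12.1% of 338 wider other expressed genes. Itga5 and Lmcd1 are examples with large falls. Lmcd1 is not RNA-higher, since its FPKM bounds overlap. The score percentile of Itga5 was 96.9 in control and 63.1 after AngII, and that of Lmcd1, a LIM-domain cofactor, was 91.9 and 57.0 while its region went from 5202 bp to 15360 bp (268 and 649 FPKM). Their ranks of score times width were 91.4 and 95.6 for Itga5, and 95.5 and 97.4 for Lmcd1. The score thus ranked lower over a far longer region, and score times width ranked higher.

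Immediate early genes are transcription factors and feedback regulators that need no new protein synthesis to be induced. Of 34 in both lists, 25 had a width ratio above 0 (20 in bins), 5 were wider and 0 narrower, with a median of 0.12; 20 of the 34 were RNA-higher. Over all 9926 genes the median was 0.02, 53.2% were above 0 (38.4% in bins), 5.85% were wider and 4.42% narrower. The 5 wider members include Nr4a1, whose coordinates cover several loci. Score times width was higher after AngII in 15 of 16 RNA-higher members with a pair. Dusp5, a nuclear phosphatase of ERK kinases, had 3825 bp in control and 6880 bp after AngII (0.438 and 27.8 FPKM), and its score percentile was 65.0 and 81.6. Arc, an activity-regulated cytoskeletal protein, had 3672 bp and 5760 bp (0.722 and 40.8 FPKM). Nr4a3, an orphan nuclear receptor, already had a strong region of 7191 bp at score percentile 97.3 in control with RNA at 0.279 FPKM; after AngII it had 8000 bp at percentile 99.2 and 22.8 FPKM. Atf3, a stress-induced factor, had 4284 bp and 6080 bp (0.115 and 1.35 FPKM). Each of these 4 genes thus had a region in control at an RNA level under 1 FPKM. Dusp5 and Arc were called wider, and Nr4a3 and Atf3 were not. The score percentile of Atf3 was 70.5 in control and 60.3 after AngII. Nr4a1, Egr1 and Junb have coordinates that cover several loci, so their widths cannot be assigned to them.

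Growth factor and cytokine genes had 22 members in both lists, of which 14 had a ratio above 0 (11 in bins), 3 were wider and 0 narrower, with a median of 0.11. The shares over all 9926 genes were 53.2% above 0 (38.4% in bins), 5.85% wider and 4.42% narrower. Ptgs2, the inducible prostaglandin synthase, had 5049 bp in control and 9120 bp after AngII (3.89 and 86.1 FPKM). Fgf2, a fibroblast growth factor, had 5049 bp and 7840 bp, with 2839 bp of the difference on the inner side (4.53 and 34.0 FPKM). Il6, interleukin-6, had 2601 bp and 4480 bp although its RNA stood at 4.64 and 5.06 FPKM. Hbegf, a ligand of the EGF receptor, had 13617 bp and 16320 bp (38.4 and 225 FPKM).

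Smooth muscle contractile genes mostly had width ratios above 0 without being RNA-higher. Of 16 in both lists, 13 had a ratio above 0 (12 in bins), beside 53.2% of all genes in both lists (38.4% in bins). Of the 16, 3 were wider and 0 narrower, beside 5.85% wider and 4.42% narrower of all genes. Their median ratio was 0.23 and their median gain 1317 bp, beside 0.02 and 57 bp over all genes, and 0 were RNA-higher. Itga8, an integrin subunit of smooth muscle, had 3519 bp and 5600 bp (108 and 92.2 FPKM). Cnn1, calponin, had 6120 bp and 9600 bp (228 and 315 FPKM), and Myl9, the regulatory myosin light chain, had 7191 bp and 10880 bp (681 and 542 FPKM). Myocd, the coactivator of serum response factor that drives contractile genes, had 9333 bp and 12480 bp (8.81 and 18.3 FPKM). Score times width was higher in 6 of 12 members with a pair, beside 45.8% of all genes in both lists; of the wider members, Itga8 had ranks of 86.5 and 90.6, Myl9 97.3 and 97.0, and Cnn1 has no rank.

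Sterol synthesis genes had a higher rank of score times width in 12 of 14 members with a pair, and stress genes in 15 of 17, beside 45.8% of all genes in both lists. In width, 1 sterol gene was wider (Msmo1) and 1 narrower (Sc5d, 3978 bp and 2240 bp), and 0 stress genes were either. Housekeeping genes had a median ratio of -0.03, with 0 wider and 0 narrower of 15; Gapdh had 10557 bp and 8320 bp. Genes of angiotensin and G-protein signalling had 2 wider and 0 narrower of 17, and Agtr1a, the AngII receptor of rat smooth muscle, had 5202 bp and 4480 bp with RNA at 99.2 and 30.1 FPKM. Of the H3K4 methyltransferases, their subunits and the H3K4 demethylases, 1 of 12 was wider and 0 narrower; the 1 was Kdm1b (2907 bp and 4640 bp), which removes mono- and dimethylation and not the trimethyl mark. The lists were drawn up with earlier results of these data known, and a count near 5.85% or 4.42% of the members is no more than the background.

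Genes with less RNA after AngII had narrower regions in few cases. Of 120 RNA-lower genes 8 (6.67%, 2.92 to 12.7) were narrower and 3 wider, with a median log2 ratio of -0.03, beside 3.68% narrower of the other expressed genes. In bins 13 (10.8%) were narrower, beside 5.73%. In all 8 genes narrower in bp the score percentile was higher after AngII, as in 98.2% of 224 narrower other expressed genes. The rank of score times width was higher in 0 of the 8. Jag1, a ligand of Notch receptors, had 19737 bp in control and 11040 bp after AngII (79.2 and 24.96 FPKM). Its inner edge shifted by -8484 bp, back toward the end, and its outer edge by -213 bp. Its score percentile was 77.8 and 97.5, and its rank of score times width 99.8 and 99.7. Counting only bp within 5 kb of the locus ends the log2 ratio of Jag1 was 0.24, since the sequence lost lies deeper inside the gene. Nlrp3, the sensor of an inflammasome, had 2601 bp and 1120 bp (3.92 and 0.491 FPKM). The score percentiles of Nlrp3 were 0.20 and 3.18, among the weakest pairs. Cln6, a protein of the endoplasmic reticulum, had 6426 bp and 3200 bp, and Otub2, a deubiquitinase, had 8415 bp and 5280 bp; these 3 are named after their values were seen.

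Most RNA-lower genes were neither wider nor narrower (109 of 120), and most ranked lower in score times width. Fgf16 had 5967 bp and 5600 bp while its RNA stood at 35.9 and 3.75 FPKM, and its rank of score times width was 86.3 and 71.7. Adamts15, a matrix protease, had 5355 bp and 5120 bp (9.25 and 0.728 FPKM), with ranks of 85.5 and 73.1. Tbx18, a T-box factor of mural cells, had 5661 bp and 5600 bp, with ranks of 94.9 and 90.9. Meox2, a homeobox regulator of growth arrest, went against this pattern in width, with 4131 bp and 7200 bp (3.18 and 0.545 FPKM), and its rank was 64.7 and 63.5.

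Narrowing at genes without RNA lay mostly at weakly scored regions. Of 2384 genes in both lists that were not expressed, 165 (6.92%) were narrower and 125 (5.24%) wider; in bins the shares were 8.98% and 3.23%. The share narrower was 3.68% of the other expressed genes, and 5.73% in bins. Under score percentile 50 in control, 108 of 978 genes without RNA (11.0%) were narrower, against 4.79% of 355 other expressed genes. At percentiles of 50 to 75 the order was the opposite, with 4.63% of 820 and 6.55% of 2490, and at 75 or more the shares were 0.704% of 426 and 1.15% of 3828. The 12 smallest ratios among genes with coordinates of their own included Mlana, a melanocyte antigen (1989 bp and 160 bp), the neural factors Hes3 (4131 bp and 800 bp) and Pou4f2 (3519 bp and 800 bp), and Tcf21, a factor of mesenchymal progenitors (3366 bp and 1120 bp), all listed at 0 FPKM in both libraries. Their control score percentiles were 11.1, 0.53, 2.39 and 0.13. By the strand in GRCr8, the regions of Mlana and Tcf21 lie at the stop of the gene and not at its start. Of 24 mesenchymal developmental factors in both lists, 6 had a ratio above 0 (also 6 in bins), beside 53.2% of all genes (38.4% in bins). The median ratio was -0.13, and 9 of the 24 were not expressed. Of the 24, 1 was wider (Meox2) and 2 were narrower, beside 5.85% wider and 4.42% narrower of all genes. The 2 were Tcf21 and the cardiac factor Gata4 (4437 bp and 1600 bp).

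The largest ratios among genes with coordinates of their own, at Tvp23b and Serpinf1, came with RNA that was close in both conditions. Serpinf1, an inhibitor of angiogenesis, had 3519 bp in control and 21440 bp after AngII, with 18108 bp of it inside the locus (199 and 156 FPKM). Tvp23b, a Golgi protein, had 1530 bp and 12800 bp, with 11253 bp on the outer side (17.5 and 15.7 FPKM). Atp10a, a phospholipid flippase, had 4437 bp and 16640 bp (19.3 and 30.3 FPKM). Its control region began inside the locus, at 110186792, while the locus itself begins at 110175553. After AngII the region began at 110174999, so most of the 11793 bp gained on that side lay inside the locus. In the other direction the place shared by Glod4 and Mrm3 had 12240 bp and 2080 bp. Tvp23b, Glod4 and Mrm3 lie at score percentiles above 99 in both lists, so these steps are not at weak regions.

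Olr1, the receptor for oxidised low-density lipoprotein on vascular cells, was the 1 RNA-higher gene with a region after AngII only. Its RNA stood at 0.902 and 25.1 FPKM. The region of 2560 bp (chromosome 4) lay at score percentile 0.37 of the AngII list, and the nearest control region was 24099 bp away. Ubtd1 was the 1 RNA-higher gene with a region in control only (918 bp at score percentile 8.71). Another 29 RNA-higher genes had no region in either list at their ends, of which 14 have coordinates of their own.

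H3K36me3, a mark laid down during transcription of gene bodies, was read at those of the same genes that have coordinates of their own. The mean share of the locus under H3K36me3 was 73.9% in control and 90.8% after AngII in 44 genes that were RNA-higher and wider in H3K4me3. It was 64.9% and 88.2% in 121 that were RNA-higher and neither wider nor narrower, and 90.3% and 92.7% in 332 that were wider without a call in RNA. In 5187 that were neither, without a call in RNA, it was 88.2% and 91.2%. Both groups without a call in RNA thus had a high share in control and a similar share after AngII. By width class alone, the mean over expressed genes was 88.1% and 92.2% for wider, 85.2% and 91.4% for narrower and 87.6% and 91.0% for those that were neither. None of these differences was tested.

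Chromosomes differed in the balance of wider and narrower pairs. On chromosome 2, 178 pairs were wider and 70 narrower, so that 71.8% of those called were wider (65.7 to 77.3). Chromosome 11 had 67.5%, chromosome X 65.8% and chromosome 16 64.1%, and the lowest were chromosomes 10 (48.3%), 12 (48.9%) and 20 (49.4%). In bins chromosome 2 had 61.2% (54.4 to 67.6) beside 45.6% over all pairs, and chromosome 7 had the lowest share (38.5%, 32.3 to 45.0). The intervals of most chromosomes overlap. The covered bp after AngII over control ranged from 0.90 on chromosome 20 to 1.12 on chromosome X. On chromosome 16 it was 0.94 with all regions and 1.01 without regions of 50 kb or more, and on chromosome 20 it was 0.90 and 0.94. Median score percentiles were close in both lists, at 47.6 and 48.4 on chromosome 2 and 58.3 and 57.0 on chromosome X.

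**Figure D5:**
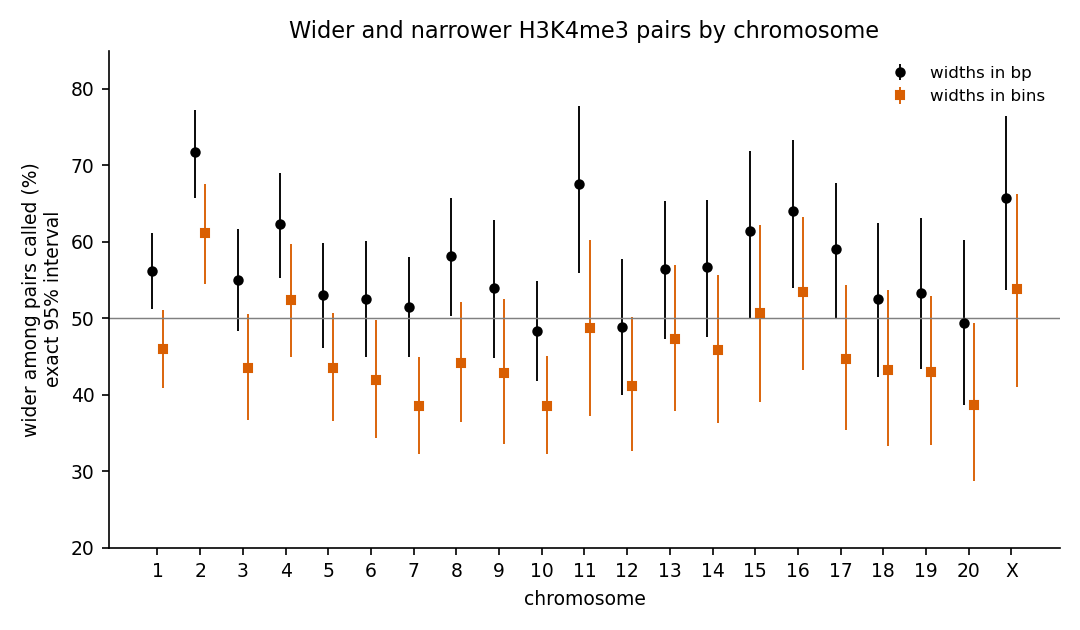
Share of wider pairs among pairs called wider or narrower (y axis, %) on each chromosome (x axis), with exact 95% intervals, for widths in bp (black) and in bins (orange). Chromosome 2 has the highest share on both scales, 71.8% and 61.2%.

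Promoter sequence was described where at least 80% of a group had a RefSeq promoter of 300 bases (250 before the start and 50 after). Of 9926 genes in both lists 7968 had one, with a median of 7 CpG per 100 bases, and 73.0% had an observed over expected CpG ratio of at least 0.6; over all 27457 promoters of the table the values were 2.33 and 36.9%. Among other expressed genes the median was 7.67 for 351 wider genes, 7 for 231 narrower and 7.33 for 5456 that were neither. For the RNA-higher genes (153 of 195) and for genes without a region (3650 of 4668) fewer had a promoter, so that check is void. Motifs were searched on both strands. GGGCGG, read by Sp1, was in 63.6% of promoters of genes in both lists and in 34.9% of all promoters, TATAAA in 6.81% and 14.3%, TGACTCA (AP-1) in 3.61% and 4.53%, TGACGTCA (CRE) in 3.23% and 1.91%, GCGTGGGCG (Egr) in 0.991% and 0.59%, and the CArG box in 1.26% and 1.64%. Matches of GGGCGG and GCGTGGGCG can overlap. A match is a description of these letters only.

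The cells were checked against their markers. Of 18 contractile genes with a locus 17 were expressed, with summed levels of 12608 and 13173 FPKM. Endothelial markers summed to 2.99 and 2.61 FPKM over 8 genes, of which 2 had a region in both lists, leukocyte markers to 11.6 and 12.5 FPKM over 10 genes, and adipocyte markers to 0.851 and 1.31 FPKM over 6. Adventitial fibroblast markers summed to 177 and 138 FPKM over 8 genes, mostly Lum at 140 and 111 FPKM. The part of other cell types in the width differences was not tested. In bulk samples more cells with a mark and more mark per cell cannot be told apart.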

How the data were processed

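H3K4me3 ChIP-seq regions were deposited by the authors as 1 list per condition with a score for each region, in rn4 coordinates per the submitters' processing notes, which name Bowtie for alignment; the region caller and what the score counts are not stated there. The input libraries were not used here. RNA was depleted of ribosomal RNA and is given as FPKM with lower and upper bounds for each locus, deposited by the authors; TopHat, Cufflinks and Cuffdiff are named in the submitters' processing notes. Sequencing depth is unknown, so no value below has an interval for it. Samples were grouped by their titles.

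Regions of both lists were joined by overlap of 1 bp or more, and widths were compared as deposited although bins were 153 and 160 bp. The score was used only as a percentile over the same 23487 pairs. For each symbol the locus with the highest mean FPKM was used, with a pseudocount of 1 for RNA ratios. Accessions were named through a RefSeq table of GRCr8. Symbols of 229 of 14767 genes lie on another chromosome there, 37 of them in both lists. Shares have exact Clopper-Pearson intervals at 95%. Named genes are the 12 largest and 12 smallest width ratios, the 6 largest gains and losses in bp, up to 3 genes per list, a fixed set, the 5 widest pairs and the 5 largest rises and falls in score percentile; not all are printed, and some items are not reported here. Not all loci have a symbol. The members, lists and rules were chosen with earlier results of these data known. Functions that join regions and call widths were tested on simulated data. Analyses used Python 3.11.15, pandas 2.3.3, NumPy 2.4.6 and SciPy 1.17.1. Alternatives varied the overlap, score, width and distance rules, the scale of widths and the RNA settings.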

Additional observations from a re-analysis of the deposited data

How the results depend on the processing

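No paired analysis was possible because a single library stands for each condition. Nothing could be left out in turn for the same reason, and depth is unknown. Of 22 values recomputed under 21 alternatives, the share of RNA-higher genes that were wider lay between 6.67% and 29.1%, and their median log2 width ratio was above 0 in each. With an overlap of 50% of both regions, 6279 places were in control only, 5912 in AngII only, 1205 pairs were wider, 934 narrower, 160 higher in score percentile and 118 lower. With the upper 75% of scores, 1185 pairs were wider, 932 narrower, 477 higher in score percentile and 492 lower. With a 2-fold width threshold, 760 pairs were wider and 537 narrower, 144 and 104 of them at ends, and 111 genes were wider and 65 narrower; 13 RNA-higher genes (6.67%) were wider, 2 RNA-lower genes narrower, and the RNA median of wider genes was 0.10. With widths in bins, the median log2 ratio of pairs was 0, chromosome 2 had 61.2% wider, 13 RNA-lower genes were narrower and the RNA median of wider genes was -0.036; centring gave 0 and 61.2%, and no minimum in bp gave 65.5% on chromosome 2. A shift of 40 points was seen in 32 pairs upward and 31 downward, and among pairs of 5 bins or more 169 and 150 shifted by 25 points. Within 5 kb of the ends 5 RNA-lower genes were narrower, and the log2 ratios were 0.24 for Jag1 and 0.050 for Fbxo31 (-0.84 and -0.64 as reported). With own coordinates and 1 symbol, 97.1% of RNA-higher genes ranked higher in score times width and the RNA median of wider genes was -0.036. With a pseudocount of 5, 3 RNA-lower genes were narrower, 5.56% ranked higher and the RNA median of narrower genes was -0.22. Without an FPKM minimum the RNA medians were -0.035 for wider and -0.14 for narrower genes, and with RNA ratios centred 0.16 and -0.11. Counting each place once or ignoring FPKM bounds, both chosen after seeing the data, kept all counts within 1.5-fold and turned the direction of none of the 22 values. Causes were not tested.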

Other observations

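The 5 widest pairs were each longer than 100 kb in both lists, lay away from RNA loci with an accession and hardly differed in width. The widest, on chromosome 8 (60097074 to 60225440), had 128367 bp in control and 128320 bp after AngII. The next, on chromosome 2, had 124695 bp and 127680 bp, and those on chromosomes 13, 17 and 18 had 112608, 109854 and 109089 bp in control. Their control score percentiles lay between 29.3 and 50.4, so they were wide and of middling score. Chromosome 16 held 10 control and 11 AngII regions of 50 kb or more, covering 1.47 Mb and 1.19 Mb, the largest total of any chromosome in both lists.

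Ndufa10, a subunit of respiratory complex I, had 153 bp in control and 640 bp after AngII at a locus on chromosome 6, while the gene of that name lies on another chromosome in GRCr8; its width is therefore uncertain. The place shared by Lrrcc1 and Slc7a12 had the largest rise in score percentile, from 59.9 to 99.9, with 5508 bp and 1440 bp. Polr1e, a subunit of RNA polymerase I, had 4284 bp and 1920 bp with percentiles of 56.0 and 92.2, and Parp1, a DNA repair enzyme, had 7038 bp and 2880 bp with percentiles of 61.4 and 94.5. Among the largest falls, Akap9, a scaffold protein, had 2295 bp and 4960 bp with percentiles of 98.3 and 64.5. In each of these, the region that was narrower ranked higher in score.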
